A study of Mus musculus with 12 samples.

Results

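Expression of 9 genes of the NRF2 pathway was examined in mouse embryonic fibroblast (MEF) cells, in 2 experiments that each have a table of their own. The genes are Nfe2l2, which encodes NRF2, Keap1, which encodes its repressor, and the inducible targets Nqo1, Hmox1, Txnrd1, Srxn1, Osgin1, Gsta4 and Gstm1. A row was taken where its gene name equalled a member's name. All 9 were found in both tables, among 43280 entries in the table of the 2MUT experiment and 23930 in the table of the 2-HG experiment, and all 9 had a mean of at least 1 RPM (gene reads scaled to a library total of 1000000) in both.

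NRF2 is a transcription factor that KEAP1, an adaptor of a CUL3 ubiquitin ligase, holds in the cytoplasm and marks for degradation. Oxidants and electrophiles modify cysteines of KEAP1, after which NRF2 accumulates, pairs with a small MAF protein and binds antioxidant response elements, whose core is written TGACNNNGC. Its targets reduce quinones, degrade heme, keep thioredoxin and glutathione reduced and conjugate reactive compounds for export. The control of NRF2 is largely on protein stability, which RNA levels do not measure.

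All groups share a background, that of fibroblasts of C57BL/6 origin (embryonic day 13.5) that had become immortal in culture with no immortalizing gene added. The 2MUT libraries are from cells that stably express a FLAG-tagged human IDH2 mutant, delivered by a retrovirus and selected with puromycin, and the Control libraries are from cells with the mock vector. Mutant IDH2 converts 2-oxoglutarate to 2-hydroxyglutarate (2-HG), and the 2-HG(+) libraries are from cells given 300 μM of membrane-permeant 2-HG for 24 h. The 2-HG(-) cells received DMSO for 24 h according to their labels, whereas the methods of the study describe them as cells not treated with 2-HG. Each group has 3 libraries. Cells with wild-type IDH2 were not analysed here, so the mutation and the raised amount of the enzyme cannot be told apart. The labels do not say that the libraries of a group came from separate cultures, so the p-values measure the spread between these libraries, which may be technical.

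Reads counted on genes ranged from 6472439 to 7313602 per library in the 2MUT experiment and from 14959318 to 18363768 in the 2-HG experiment. A count of 3 reads corresponds to 0.41 to 0.464 RPM and to 0.163 to 0.201 RPM, respectively. Among 12 fibroblast markers, 10 or 11 were at 1 RPM or more in every library, whereas Lum was near 0 in most libraries and Twist2 was listed at 0 or was absent from the table. The summed level of the fibroblast markers was 15180.1 to 17181 RPM in Control and 13531 to 13989 RPM in 2MUT, and 22001 to 23647 RPM in 2-HG(-) and 15453 to 16479 RPM in 2-HG(+). The sum was thus lower in 2MUT and in 2-HG(+), and its part in the results below was not tested. Of the 10 markers tested, 7 were called lower and 1, Fn1, higher in 2MUT (0.43, limma adjusted p = 0.011), and 6 were called lower and 1, Thy1, higher with 2-HG (0.71, limma adjusted p = 0.014). Summed endothelial markers (6 genes) were at 1.09 to 2.14 RPM in Control and 2.06 to 3.55 RPM in 2MUT, and at or under 1.47 RPM in the 2-HG experiment. Of these, Cdh5 (0 in Control, 0.55 to 0.927 RPM in 2MUT) and Vwf (0 to 0.285 and 0.413 to 1.46 RPM) lay higher in 2MUT with no overlap and Cldn5 (0.137 to 0.712 RPM and 0) lower, all at mean levels under 1 RPM and not tested. Summed epithelial markers (7 genes) stayed at or under 0.878 RPM, and were at 0.468 to 0.66 RPM in 2-HG(-) and 0.13 to 0.301 RPM in 2-HG(+). Leukocyte markers summed to 7.55 to 12.4 RPM in Control and 7.02 to 8.35 RPM in 2MUT, and to 12.1 to 14.6 RPM in 2-HG(-) and 8.86 to 11.0 RPM in 2-HG(+), with Cd68 lower with 2-HG (-0.51, limma adjusted p = 0.021), Csf1r, not tested at its mean level under 1 RPM, at 0 to 0.57 RPM in Control and 0.688 to 1.7 RPM in 2MUT, and Ptprc at 0 in all libraries but Control library 2, where it was at 0.142 RPM. Hepatocyte markers (4 genes) summed to 0 RPM in every Control library and to 1.54 to 3.95 RPM in 2MUT, where Apoa1 was at 1.54, 3.95 and 1.93 RPM, Ttr was at 0.688 RPM in library 3 only and Alb and Cyp2e1 were at 0. Apoa1 was called higher in 2MUT (1.73, limma adjusted p = 0.0012), but it passed the filter only through 2MUT, where it was high, so this call is not used. In the 2-HG experiment the hepatocyte markers summed to at most 0.24 RPM. Hepatocyte markers and single endothelial and leukocyte markers differed between Control and 2MUT, and epithelial and leukocyte markers between 2-HG(-) and 2-HG(+), and their part in the results was not tested. Across genes, 2-HG(-) library 2 and 2-HG(+) library 1 deviated from their group means together (r = 0.48), as did 2-HG(-) library 1 and 2-HG(+) library 3 (r = 0.413), and the former pair were the lowest of their groups for Nfe2l2 and Keap1. Endogenous mouse Idh2 had a mean of 77.3 RPM (SD 5.54, n = 3) in the Control libraries and 49.6 RPM (SD 6.39, n = 3) in the 2MUT libraries, and since the transgene is human and the amplicons are designed for mouse genes, this value does not check the 2MUT label. As the samples are bulk RNA, fewer cells of a kind and less RNA per cell cannot be told apart.

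Promoter sequence from RefSeq (GRCm38.p6), 250 bases before to 50 after a start of transcription, was matched for 7 of the 9 genes, in 10 windows. The antioxidant response element core TGACNNNGC, searched on both strands, was found in windows of 3 genes, Nfe2l2, Srxn1 and Txnrd1, and is present in 12.4% of all 32851 promoter windows. The AP-1 motif TGANTCA, which can overlap the element, was found for 2 genes, Srxn1 and Osgin1, and is present in 7.81% of all windows. Srxn1 held both, as do 1.17% of all windows. The stretches upstream of the starts are shown because these 4 genes differed in which comparison, if any, they passed the test. Each is written 5′ to 3′ along the strand of the gene, with the match in capitals.
Nfe2l2, chr2:75704881-75704913, minus strand, in an exon of the noncoding gene E030042O20Rik: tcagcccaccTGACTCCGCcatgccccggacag
Txnrd1, chr10:82859100-82859136, plus strand, in an intron of Txnrd1, with the core on the other strand: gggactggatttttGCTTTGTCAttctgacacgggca
Srxn1, chr2:152105408-152105442, plus strand, outside annotated genes: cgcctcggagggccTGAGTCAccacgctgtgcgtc
Srxn1, chr2:152105465-152105499, plus strand, outside annotated genes: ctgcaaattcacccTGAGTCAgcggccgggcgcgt
Osgin1, chr8:119437036-119437070, plus strand, in an intron of Osgin1: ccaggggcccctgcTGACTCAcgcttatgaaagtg
The core of Srxn1 lies just after its start and is not printed. A match in these letters is a description of the window and not a binding site, and the windows of Nqo1, Keap1 and Gstm1 held neither set of letters.

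Comparison of 2MUT with Control identified Nfe2l2, Nqo1, Hmox1 and Srxn1 as higher and Gsta4 as lower, while Keap1, Txnrd1, Osgin1 and Gstm1 did not pass the test (limma on log2(RPM + 1), Benjamini-Hochberg adjusted p under 0.05). These 5 of 9 calls stand beside 33.8% of all 11065 genes tested, of which 16.5% were called higher and 17.3% lower. In the cells treated with 2-HG, Txnrd1 and Srxn1 were higher, Gstm1 was lower and the other 6 did not pass the test. These 3 of 9 calls stand beside 32.8% of all 10384 genes tested, with 16.1% called higher and 16.7% lower, which is close to the share among the 9 genes. Srxn1 was the gene called higher in both comparisons. The libraries of the compared groups did not overlap for 5 members in the 2MUT experiment, 4 of them higher and 1 lower, where 47.5% of all tested genes did not overlap (23.5% higher and 24% lower). In the 2-HG experiment they did not overlap for 4 members, 2 higher and 2 lower, beside 46.3% of all tested genes (22.2% higher and 24.1% lower). The median change of the members was 0.45 on the log2 scale in 2MUT, beside 0.01 over all genes, and -0.31 with 2-HG, beside -0.02 over all genes.

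**Figure D1:**
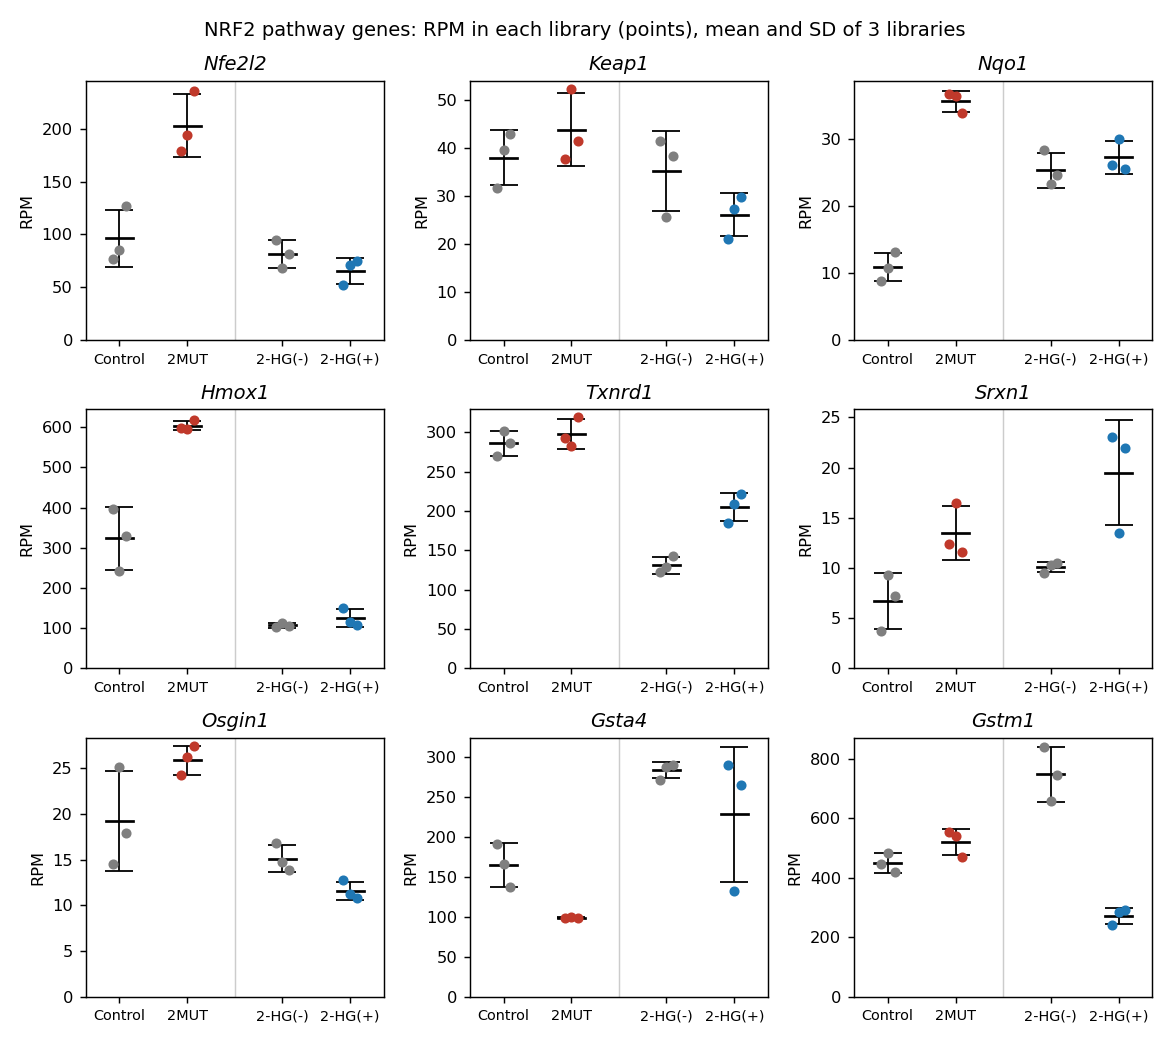
RPM of the 9 genes in each of the 12 libraries, on linear axes from 0, with points for libraries and bars for the mean and SD of each group. Nqo1 lies between 8.88 and 13.1 RPM in the Control libraries and between 33.9 and 36.8 RPM in the 2MUT libraries, and Gstm1 lies above 600 RPM in every 2-HG(-) library and below 300 RPM in every 2-HG(+) library.

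The regulator Nfe2l2 (chr2:75675513-75704641, minus strand, GRCm38 with GENCODE M21 annotation) was 76.5, 85.2 and 127 RPM in Control libraries 1 to 3, and 179, 194 and 236 RPM in 2MUT libraries 1 to 3. Every 2MUT library was above every Control library. The change was 1.09 on the log2 scale (SE 0.17, 95% confidence interval 0.71 to 1.48, limma adjusted p = 0.00074), from 96.3 ± 27.2 to 203 ± 29.5 RPM (SD, n = 3). This ranked Nfe2l2 359th from the highest change among 11065 genes. In the 2-HG experiment Nfe2l2 was 94.8, 68.1 and 81.8 RPM in the 2-HG(-) libraries and 51.7, 70.5 and 74.9 RPM in the 2-HG(+) libraries. The groups overlapped, and the change of -0.31 (interval -0.68 to 0.05, limma adjusted p = 0.17) did not pass the test. It was -0.15 without 2-HG(+) library 1 and -0.43 without 2-HG(-) library 2, and was not called without any single library. A small noncoding RNA gene on the same strand within Nfe2l2, Gm24996, was listed at 0 in the 2MUT table and was not listed in the 2-HG table. Whether an amplicon measures Gm24996 was not tested, so this value does not show that it is silent.

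The repressor Keap1 (chr9:21229730-21239361, minus strand) was 31.7, 39.5 and 42.9 RPM in Control and 37.7, 52.4 and 41.4 RPM in 2MUT, and 41.5, 25.6 and 38.4 RPM in 2-HG(-) and 21.1, 27.3 and 29.8 RPM in 2-HG(+). The groups overlapped in both experiments. The change in 2MUT was 0.20 (interval -0.15 to 0.55, limma adjusted p = 0.37). It ranged from 0.07 to 0.30 with single libraries left out and was never called. With 2-HG the change was -0.40 (interval -0.84 to 0.03, limma adjusted p = 0.14). Without 2-HG(-) library 2, the lowest of its group, the change with 2-HG was -0.61 with an adjusted p of 0.022, and without other single libraries it was as small as -0.26 (adjusted p = 0.33, without 2-HG(+) library 1). An antisense gene that overlaps Keap1, Gm16754, was listed at 0 in the 2MUT table and was not listed in the 2-HG table. The same limit holds for this value as for Gm24996.

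Among the target genes, the quinone reductase Nqo1 (chr8:107388225-107403206, minus strand) had the largest change of the 9 genes in 2MUT. It was 8.88, 10.7 and 13.1 RPM in Control and 36.8, 36.5 and 33.9 RPM in 2MUT, from 60 to 249 reads per library. The groups were far apart, and each was narrow. The change was 1.64 (SE 0.16, interval 1.28 to 2.00, limma adjusted p = 3.6e-05), or 3.12-fold on this scale, and ranked 83rd from the highest among 11065 genes. With 2-HG, Nqo1 was 28.4, 23.3 and 24.6 RPM in the 2-HG(-) libraries and 26.1, 30.1 and 25.6 RPM in the 2-HG(+) libraries. These groups overlapped, with a change of 0.10 whose interval, -0.18 to 0.38, did not reach the change seen in 2MUT (limma adjusted p = 0.58). The control groups of the 2 tables stood at 10.9 ± 2.13 and 25.4 ± 2.63 RPM (SD, n = 3), and as the tables list different entries and were normalized separately, these levels are not compared.

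Hmox1 (chr8:75093621-75100589, plus strand) encodes the heme oxygenase that splits heme into biliverdin, iron and carbon monoxide. It was 397, 243 and 329 RPM in Control and 599, 596 and 618 RPM in 2MUT. All 2MUT libraries were above all Control libraries, and the spread in 2MUT (SD 11.8 RPM) was smaller than in Control (SD 77.4 RPM). The change was 0.93 (SE 0.15, interval 0.61 to 1.25, limma adjusted p = 0.00069), the 564th highest of 11065. In the 2-HG experiment Hmox1 was 103, 114 and 105 RPM without and 150.0, 116 and 109 RPM with 2-HG. A single 2-HG(+) library, the first, stood above the rest, the groups overlapped, and the change of 0.20 (interval -0.08 to 0.49) did not pass the test (limma adjusted p = 0.26).

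Txnrd1 (chr10:82833951-82897712, plus strand), the cytosolic thioredoxin reductase that uses NADPH to keep thioredoxin reduced, passed the test in the 2-HG experiment and not in 2MUT. It was 270.0, 301 and 286 RPM in Control and 293, 282 and 319 RPM in 2MUT, which overlapped, with a change of 0.06 (interval -0.14 to 0.26, limma adjusted p = 0.65). With 2-HG it rose from 122, 129 and 143 RPM to 185, 209 and 221 RPM, and all treated libraries were above all 2-HG(-) libraries. The change was 0.64 (SE 0.11, interval 0.40 to 0.87, limma adjusted p = 0.0016). Genes that overlap Txnrd1 were low where listed, with Gm38560 on the other strand at 0.368 RPM and Eid3 on the same strand at 1.3 RPM over the 2-HG table.

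Srxn1 (chr2:152105516-152111376, plus strand) encodes sulfiredoxin, which restores overoxidized peroxiredoxins. It was low in the 2MUT experiment, at 3.7, 9.26 and 7.25 RPM in Control and 12.4, 16.5 and 11.6 RPM in 2MUT, from 25 to 113 reads per library. The groups did not overlap, and the change was 0.96 (SE 0.27, interval 0.36 to 1.56, limma adjusted p = 0.019). This call was lost without Control library 1 (change 0.64, adjusted p = 0.052) and without 2MUT library 2 (change 0.82, adjusted p = 0.079). With 2-HG, Srxn1 rose from 9.47, 10.3 and 10.5 RPM to 23.1, 13.5 and 22.0 RPM. The 2-HG(-) libraries were close together, 2-HG(+) library 2 was nearest to them, and no library overlapped. The change was 0.85 (SE 0.19, interval 0.43 to 1.28, limma adjusted p = 0.0077).

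Osgin1 (chr8:119434124-119446256, plus strand), an oxidative stress induced growth inhibitor, passed the test in neither comparison. It was 14.5, 25.2 and 17.9 RPM in Control and 24.3, 26.2 and 27.4 RPM in 2MUT. Control library 2 lay among the 2MUT libraries, and without it the change of 0.45 (interval 0.03 to 0.86, limma adjusted p = 0.09) became 0.65 with an adjusted p of 0.016, whereas without Control library 1 it was 0.27 (adjusted p = 0.27). With 2-HG the values were 16.8, 14.7 and 13.9 RPM in the 2-HG(-) libraries and 12.8, 11.3 and 10.8 RPM in the 2-HG(+) libraries. All treated libraries were below all 2-HG(-) libraries, with a change of -0.35 (interval -0.65 to -0.06, limma adjusted p = 0.067). Without 2-HG(+) library 1 the change was -0.41 with an adjusted p of 0.047, and without 2-HG(-) library 1 it was -0.28 (adjusted p = 0.2).

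The glutathione S-transferases among the members, which join glutathione to reactive compounds, were lower or did not pass the test. Gsta4 (chr9:78182774-78209349, plus strand), which acts on aldehydes from lipid peroxidation, was 192, 167 and 137 RPM in Control and 98.3, 100.3 and 98.9 RPM in 2MUT. Every 2MUT library was below every Control library, and the change was -0.72 (SE 0.12, interval -0.99 to -0.44, limma adjusted p = 0.0012). In the 2-HG experiment Gsta4 was 272, 288 and 291 RPM without and 291, 133 and 265 RPM with 2-HG. The change of -0.38 (interval -0.93 to 0.16, limma adjusted p = 0.26) rested on 2-HG(+) library 2, and without that library it was -0.03.

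Gstm1 (chr3:108012255-108017973, minus strand), a mu class enzyme, was 446, 485 and 419 RPM in Control and 554, 541 and 472 RPM in 2MUT. The groups overlapped and the change of 0.21 did not pass the test (interval 0.00 to 0.43, limma adjusted p = 0.11). With 2-HG it fell from 841, 658 and 746 RPM to 243, 286 and 291 RPM. Every treated library was far below every 2-HG(-) library, and the change was -1.45 (SE 0.12, interval -1.71 to -1.18, limma adjusted p = 2.8e-05), or 2.73-fold lower on this scale and the 167th lowest of 10384 genes. Gstm1 is 1 of 7 mu class genes that lie side by side on chromosome 3, between 107895821 and 108044894, and reads could be shared between these similar copies, so values of single Gstm genes are uncertain.

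**Figure D2:**
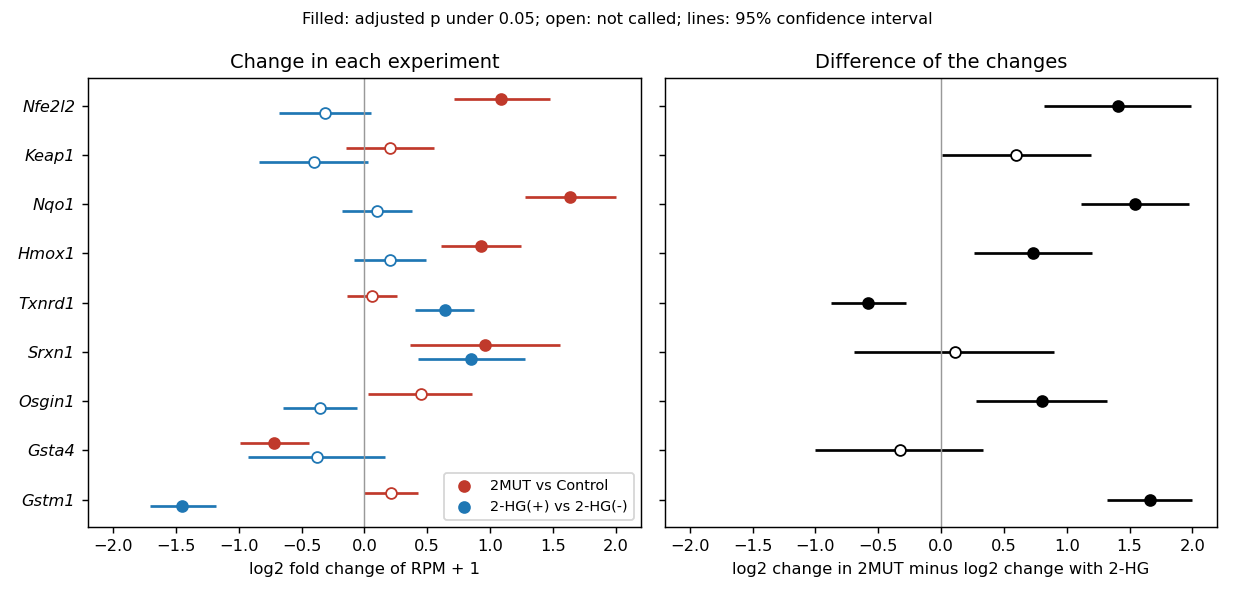
Change of each of the 9 genes on the log2(RPM + 1) scale with its 95% confidence interval, in 2MUT against Control (red) and in 2-HG(+) against 2-HG(-) (blue), and at the right the difference between these changes, with filled points for adjusted p under 0.05. Nqo1 is at 1.64 in 2MUT and 0.10 with 2-HG, whereas Gstm1 is at 0.21 in 2MUT and -1.45 with 2-HG.

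The change in 2MUT minus the change with 2-HG was then tested over the 12 libraries. It passed the test for 6 of the 9 genes, beside 39.4% of the 9594 genes tested in both experiments. The change was larger in 2MUT for Gstm1 by 1.66 (interval 1.32 to 2.00, limma adjusted p = 3.1e-06), Nqo1 by 1.54 (1.11 to 1.97, adjusted p = 4.7e-05), Nfe2l2 by 1.41 (0.82 to 1.99, adjusted p = 0.0012), Osgin1 by 0.80 (0.28 to 1.32, adjusted p = 0.017) and Hmox1 by 0.73 (0.26 to 1.20, adjusted p = 0.018). These 5 positive calls stand beside 19.9% of all genes. It was smaller in 2MUT for Txnrd1, with a difference of -0.58 (-0.88 to -0.28, limma adjusted p = 0.0051), beside 19.5% of all genes. For Srxn1 the difference was 0.11, with an interval from -0.69 to 0.90 that leaves room for a sizeable difference either way (limma adjusted p = 0.84). Keap1, at 0.60 (0.01 to 1.19, adjusted p = 0.098), and Gsta4, at -0.33 (SE 0.31, adjusted p = 0.42), did not pass the limma test either. Without 2-HG(+) library 2 the difference of Gsta4 was -0.68 (adjusted p = 0.0079), and without 2-HG(-) library 2 that of Keap1 was 0.81 (adjusted p = 0.021). Other single libraries moved these values the other way, to -0.12 for Gsta4 without 2-HG(+) library 1 (adjusted p = 0.77) and to 0.46 for Keap1 without 2-HG(+) library 1 (adjusted p = 0.21). The experiments differ in duration, vector, selection and depth as well as in the source of 2-HG, and these cannot be told apart.

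Other genes of the pathway were taken from lists of partners, regulators and enzymes. Of 15 genes that control NRF2, 13 were tested in each experiment, and 2 were called in 2MUT, both higher, beside 16.5% of all genes called higher. Leaving out single libraries gave 2 to 4, with Bach2 (1.86, adjusted p = 0.024) and Maff (0.42, adjusted p = 0.021) added without Control library 1 and Bach1 (0.53, adjusted p = 0.03) without Control library 2. They were the coactivator genes Crebbp, from 111 ± 16.4 to 202 ± 10.5 RPM (SD, n = 3; change 0.87, limma adjusted p = 0.00028), and Ep300, from 20.0 ± 2.6 to 34.7 ± 3.09 RPM (change 0.77, adjusted p = 0.0022). With 2-HG 1 gene was higher and 2 lower, beside 16.1% and 16.7% of all genes. The lower genes were Crebbp and Ep300 again, Crebbp by a change of -0.79 (limma adjusted p = 0.0044) and Ep300 by -0.36 (adjusted p = 0.013), and Maff, a small MAF partner of NRF2, was higher by 0.56 (adjusted p = 0.022). The call of Ep300 with 2-HG was lost without 2-HG(-) library 3 (-0.33, adjusted p = 0.061) and without 2-HG(+) library 2 (-0.34, adjusted p = 0.062), and that of Maff without 2-HG(-) library 1 (0.49, adjusted p = 0.074) and without 2-HG(-) library 3 (0.52, adjusted p = 0.083). Crebbp (adjusted p = 0.063) and Maff (0.11) also lost their calls with 2-HG in an unmoderated test, which takes the spread from each gene alone. The difference between the changes was 1.66 for Crebbp (limma adjusted p = 4.2e-05) and 1.13 for Ep300 (adjusted p = 7.2e-05). Bach1, the repressor that competes for the element, did not pass the test in either comparison (0.38, adjusted p = 0.1, and -0.47, adjusted p = 0.052), although the difference between its changes did (0.85, limma adjusted p = 0.016). With 2-HG, Bach1 was called lower by edgeR (-0.49, adjusted p = 0.034), by DESeq2 (-0.49, adjusted p = 0.023), by limma with quantile scaling (-0.41, 0.045), median-of-ratios scaling (-0.44, 0.041) or no trend (-0.47, 0.049), and without 2-HG(-) library 2 (-0.56, 0.042). Cul3, Mafg and Mafk were not called in either comparison under any alternative. Nfe2l1 (0.30, limma adjusted p = 0.067) was called higher with 2-HG by edgeR (0.04998), DESeq2 (0.029), median-of-ratios scaling (0.038) and without 2-HG(+) library 1 (0.035), where Sqstm1 was called as well (0.37, adjusted p = 0.043), so that single libraries left out gave 0 to 3 higher genes. Rbx1, the ring subunit of the ligase, was listed at or near 0 in the 2MUT table and was not listed in the 2-HG table. Whether an amplicon measures it was not tested, and this value is not read as its expression.

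NADPH is the reducing power that NQO1, thioredoxin reductase and glutathione reductase spend. Of 6 listed genes of its supply and of the pentose phosphate pathway, 2 were higher and 1 lower in each comparison, beside 16.5% higher and 17.3% lower over all genes in 2MUT and 16.1% and 16.7% with 2-HG. With the unmoderated test, 2 were higher in 2MUT, Tkt losing its call (adjusted p = 0.079), and none of the 3 kept its call with 2-HG (Me1 0.12, Taldo1 0.13, Idh1 0.094). In 2MUT, Pgd of the pentose phosphate pathway rose from 60.5, 82.8 and 71.2 RPM to 153, 177 and 195 RPM (change 1.29, limma adjusted p = 5e-05), without overlap. Idh1, the cytosolic isocitrate dehydrogenase, was higher (0.64, adjusted p = 0.0048) and Tkt lower (-0.60, adjusted p = 0.02), the latter call being lost without Control library 2 (-0.58, adjusted p = 0.052) and without 2MUT library 1 (-0.45, adjusted p = 0.078). With 2-HG, Me1, the malic enzyme, rose from 416 ± 80.0 to 672 ± 138 RPM (SD, n = 3; change 0.69, limma adjusted p = 0.014), and Pgd had a change of 0.00 with overlapping groups. Taldo1 was higher (0.43, adjusted p = 0.03) and Idh1 lower (-0.33, adjusted p = 0.039). Each lost its call in 4 of the 6 sets that leave out 1 library: Taldo1 without 2-HG(-) library 2 (0.34, adjusted p = 0.087) or 3 (0.46, 0.073) and without 2-HG(+) library 2 (0.39, 0.098) or 3 (0.36, 0.096), and Idh1 without 2-HG(-) library 1 (-0.32, 0.087) or 3 (-0.27, 0.15) and without 2-HG(+) library 1 (-0.25, 0.097) or 2 (-0.35, 0.076). The call of Idh1 was also lost with no filter (0.056) and with no trend (0.065).

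In the thioredoxin and peroxiredoxin list, 9 genes were tested in each experiment, and 5 were called in 2MUT, all lower, beside 17.3% of all genes. The unmoderated test called 3 lower, as Txn1 (adjusted p = 0.061) and Prdx6 (0.052) lost their calls. The fall was from 883 ± 33.4 to 565 ± 6.23 RPM for Prdx2 (change -0.64, limma adjusted p = 0.00015) and from 1343 ± 152 to 994 ± 49.4 RPM for Txn1, thioredoxin itself (-0.43, adjusted p = 0.0061). Prdx5 (-0.47, adjusted p = 0.0041) and Prdx6 (-0.40, adjusted p = 0.011) were also lower, Prdx6 with an adjusted p of 0.05001 without 2MUT library 3. The fifth, Prdx4, named after its values were seen, was at only 2.89 and 1.31 RPM on average and lost its call when any of 5 single libraries was left out, with changes of -0.62 without Control library 2, -0.77 without Control library 3, and -0.72, -0.70 and -0.81 without 2MUT library 1, 2 or 3 (adjusted p from 0.054 to 0.098). It was also not called by DESeq2 (-1.14, adjusted p = 0.09) or by limma with no filter (-0.74, adjusted p = 0.055) or with the replicate block (-0.74, adjusted p = 0.051). With 2-HG, 2 of the 9 were called, both higher, beside 16.1% of all genes, namely Prdx6 from 133 ± 17.3 to 221 ± 16.9 RPM (SD, n = 3; change 0.74, limma adjusted p = 0.0013) and Txn2 (0.44, adjusted p = 0.012, or 0.059 with the unmoderated test). The unmoderated test also called Prdx5 lower with 2-HG (-0.18, adjusted p = 0.036), and limma after quantile scaling called Txnrd3 higher (0.41, adjusted p = 0.038). The difference between the changes passed the test for 5 of the 9, all smaller in 2MUT, beside 19.5% of all genes tested in both experiments. Its lowest value was that of Prdx6 (-1.13, limma adjusted p = 8e-05). Prdx1 was listed at or near 0 in the 2MUT table and was not listed in the 2-HG table. Whether an amplicon measures it was not tested, and this value is not read as its expression.

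Other glutathione S-transferase genes are 21 in number, and 11 of them had a mean under 1 RPM in the 2MUT experiment. In the 2-HG experiment 5 had a mean under 1 RPM and another 5 were not listed. With 2-HG 11 were tested, but Gstm3 and Gstm6 reached 1 RPM only in the 2-HG(-) libraries, where they were high, and are left out of the count. Of the other 9, 6 were lower and 1 higher, beside 16.7% and 16.1% of all genes, with a median change of -0.68. Gstt1 fell from 36.4, 22.3 and 27.0 RPM to 5.49, 6.55 and 9.93 RPM (change -1.83, limma adjusted p = 0.00029), and Mgst3, a microsomal member, from 99.8, 98.5 and 94.6 RPM to 57.7, 50.8 and 47.0 RPM (-0.90, adjusted p = 0.00022). All treated libraries were below all 2-HG(-) libraries for both genes. Gstm7 (-1.17, limma adjusted p = 0.00047) and Mgst2 (-0.74, adjusted p = 0.02) were also lower, Mgst2 not without 2-HG(-) library 1 (-0.59, adjusted p = 0.072) or 3 (-0.75, adjusted p = 0.061). The remaining lower genes, named after their values were seen, were Gstm2 (-0.68, adjusted p = 0.0025) and Mgst1 (-0.63, adjusted p = 0.0074), and Gsto1 was the higher one (0.51, adjusted p = 0.0094). With the unmoderated test Mgst2 (adjusted p = 0.15), Mgst1 (0.057) and Gsto1 (0.061) lost their calls. As noted for Gstm1, reads of Gstm2 and Gstm7 could be shared between copies, which was not tested.

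In 2MUT, 2 of the 10 transferase genes tested were higher and 1 lower, beside 16.5% and 17.3% of all genes. None of the 3 was called by the unmoderated test (Gstm7 adjusted p = 0.076, Gstm2 0.073, Gsto1 0.059). Without Control library 1, Mgst3 (0.39, adjusted p = 0.046) was called higher and Mgst2 (-0.47, adjusted p = 0.038) lower. Gstm7 was 5.47, 8.97 and 7.79 RPM in Control and 19.9, 19.3 and 11.8 RPM in 2MUT, without overlap (change 1.09, limma adjusted p = 0.0046). Gstm2 was higher by 0.25 with an adjusted p of 0.0496, and Gsto1 lower by -0.39 (adjusted p = 0.017). The call of Gstm2 was lost without Control library 2 (0.21, adjusted p = 0.13) or 3 (0.25, 0.081) and without 2MUT library 1 (0.25, 0.13), 2 (0.29, 0.082) or 3 (0.23, 0.16), in the edgeR test on whole reads (0.071), with median-of-ratios scaling (0.061), no trend (0.13), no filter (0.082) and an added value of 0.1 (0.0505), and that of Gsto1 without 2MUT library 1 (-0.30, adjusted p = 0.084). The difference between the changes was called for 6 of the 9 transferases tested in both experiments, beside 39.4% of all 9594 genes. Of these, 5 were larger in 2MUT, beside 19.9% of all genes, at 2.26 for Gstm7 (limma adjusted p = 5.5e-05), 1.77 for Gstt1 (0.0012), 1.24 for Mgst3 (2.9e-05), 0.93 for Gstm2 (0.00033) and 0.66 for Mgst1 (0.011). The other 1 was smaller, beside 19.5% of all genes, at -0.91 for Gsto1 (0.00065).

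**Figure D3:**
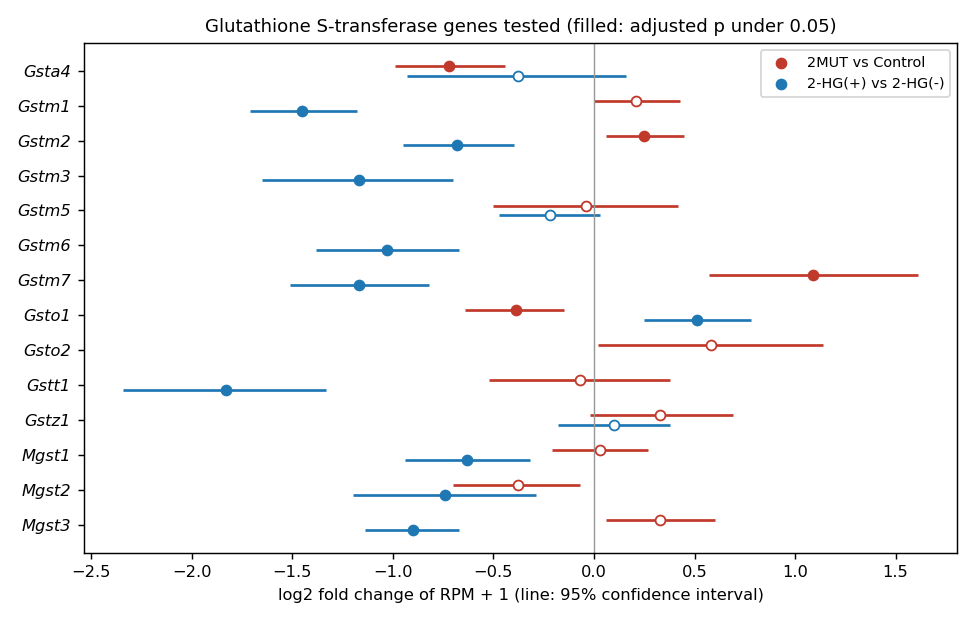
Change of the tested glutathione S-transferase genes, Gsta4 and Gstm1 included, on the log2(RPM + 1) scale with 95% confidence intervals in both comparisons (2MUT red, 2-HG blue, filled points for adjusted p under 0.05). Gstt1 (-1.83), Gstm1 (-1.45) and Gstm7 (-1.17) lie well below 0 with 2-HG, whereas Gstm7 (1.09) lies above 0 in 2MUT.

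Among other genes of detoxification and export, Abcc4, a pump for organic anions and conjugates, was higher in both comparisons. It rose from 11.4, 12.4 and 10.9 RPM to 31.8, 21.2 and 32.7 RPM in 2MUT (change 1.21, limma adjusted p = 0.00053) and from 41.5, 36.4 and 35.8 RPM to 81.8, 74.3 and 84.9 RPM with 2-HG (1.06, adjusted p = 9.4e-05). The groups did not overlap in either experiment, and the difference between the changes, 0.15, had an interval of -0.31 to 0.60. The list as a whole had 2 of 11 higher and 2 lower in 2MUT, and with 2-HG 2 of 11 higher and 2 lower, leaving out Aldh3a1, which reached 1 RPM only in the 2-HG(-) libraries. The shares over all genes were 16.5% and 17.3%, and 16.1% and 16.7%. With the unmoderated test Akr1b8 (adjusted p = 0.097), Aox1 (0.075) and Ephx1 (0.056) lost their calls in 2MUT. With 2-HG, Cbr1 was called lower without 2-HG(-) library 1 (-0.41, adjusted p = 0.048), Ptgr1 lower without 2-HG(-) library 2 (-0.36, 0.046) and Akr1b8 higher without 2-HG(+) library 3 (0.39, 0.046). The aldo-keto reductase gene Akr1b8 was lower in 2MUT (-0.56, limma adjusted p = 0.0071) and Akr1b10 lower with 2-HG (-0.65, adjusted p = 0.0025), where Abcc1 was higher (0.46, adjusted p = 0.0051). Ephx1 was lower in 2MUT (-0.32, adjusted p = 0.03), a call lost without Control library 1 (-0.29, 0.062) or 2 (-0.31, 0.059), without 2MUT library 2 (-0.30, 0.1) or 3 (-0.27, 0.11), and with no trend (0.078). Among genes under 10 RPM, chosen after their values were seen, the aldehyde oxidase Aox1 moved in opposite directions, from 3.13 ± 1.11 to 8.12 ± 2.02 RPM in 2MUT (change 1.16, limma adjusted p = 0.0059) and from 8.6 ± 1.21 to 1.5 ± 0.221 RPM with 2-HG (-1.94, adjusted p = 2.3e-05), with a difference between the changes of 3.10 (adjusted p = 5.3e-06).

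Of the heme and iron genes, which act beside Hmox1, 1 of 6 was higher and 2 were lower in 2MUT, beside 16.5% and 17.3% of all genes. With 2-HG, 0 of 5 passed the test in limma, beside 32.8% of all genes, and 0 of 5 in edgeR or DESeq2. Of the 5, 3 (Blvra, Blvrb and Fech, named after their values were seen) had an unadjusted limma p under 0.05. Blvra was called higher without 2-HG(-) library 2 (0.45, adjusted p = 0.033). Blvrb, a biliverdin reductase, fell from 66.6, 72.9 and 69.5 RPM to 40.0, 31.8 and 37.6 RPM in 2MUT, without overlap (change -0.92, limma adjusted p = 0.00026). Hmox2, the constitutive heme oxygenase, was lower (-0.47, adjusted p = 0.033) but not without Control library 1 (-0.33, 0.11), 2MUT library 1 (-0.37, 0.13) or 2MUT library 3 (-0.48, 0.077), nor with no trend (0.078) or no filter (0.051). Slc48a1, a heme transporter, was higher (0.43, adjusted p = 0.016) but not without 2MUT library 1 (0.41, 0.058) or 2 (0.37, 0.075), nor with no trend (0.058). Neither Hmox2 (adjusted p = 0.17) nor Slc48a1 (0.11) was called by the unmoderated test. The ferritin gene Ftl1 reached 1 RPM only in the 2MUT libraries and is left out of the count. Fth1, which is among the 6 and was not called, was at 2.07 and 3.05 RPM on average in Control and 2MUT. Why both ferritin genes were listed at such low levels in the 2MUT table was not tested, and these values are not read as their expression.

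Glutathione synthesis genes, which NRF2 also controls, were 3 of 5 higher and 1 lower in 2MUT and 4 of 5 higher with 2-HG, beside 16.5% and 17.3%, and 16.1%, of all genes. With the unmoderated test 2 were higher in each comparison, Gsr (adjusted p = 0.055) losing its call in 2MUT and Gclc (0.053) and Gclm (0.059) with 2-HG. Gclc, Gclm and Gsr were higher in both, with changes of 0.97, 0.85 and 0.63 in 2MUT and 0.40, 0.42 and 1.06 with 2-HG. Gss, glutathione synthetase, was the lower gene in 2MUT (-0.59, limma adjusted p = 0.0041), and the cystine carrier Slc7a11 had changes of 0.34 (limma adjusted p = 0.4) and 2.83 (adjusted p = 1.7e-06). With 2-HG, the call of Gclc was lost without 2-HG(-) library 3 (0.33, 0.073) or 2-HG(+) library 2 (0.37, 0.067), and that of Gclm without the same libraries (0.40, 0.057, and 0.36, 0.066).

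**Figure D4:**
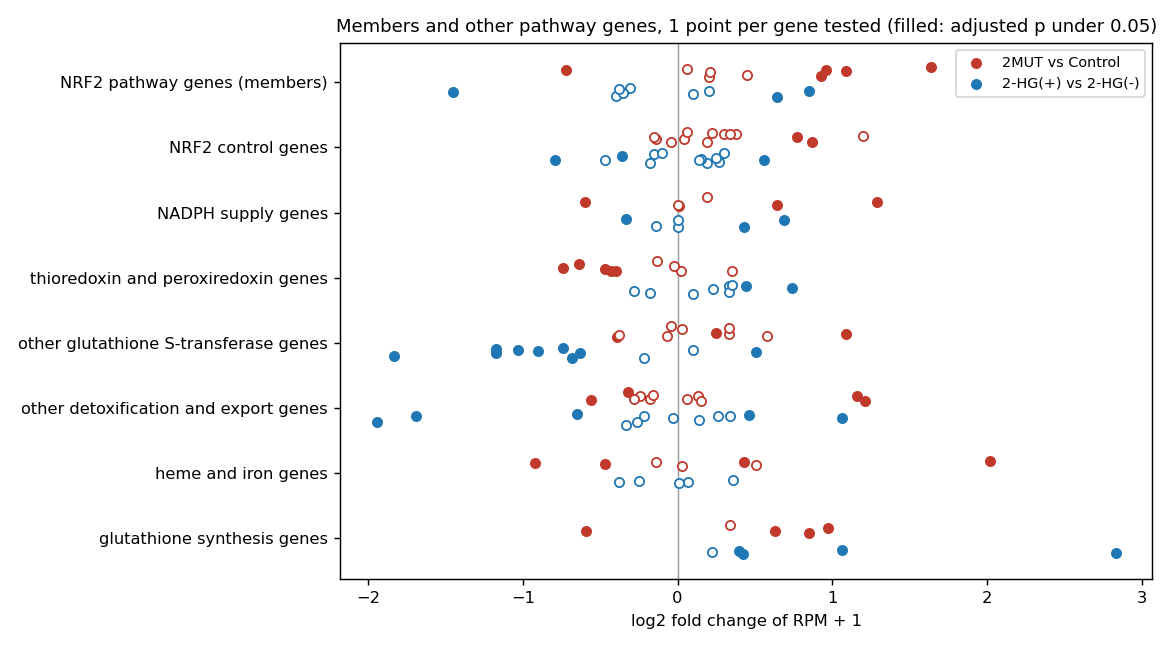
Change of every tested gene on the log2(RPM + 1) scale, by list, in 2MUT against Control (red) and in 2-HG(+) against 2-HG(-) (blue), with 1 point per gene, filled where the adjusted p was under 0.05; vertical spread within a list only separates points. The thioredoxin and peroxiredoxin list has 5 of 9 genes lower in 2MUT, and the cystine carrier gene Slc7a11, at 2.83, lies farthest to the right with 2-HG.

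As a description, genes were ranked by how closely their values over the 12 libraries, each taken relative to the mean of its own table's control group, followed those of Nqo1 and Hmox1 among 6716 genes. The points are not independent, since the libraries of a group share their cells, treatment and table. For Nqo1 the nearest were Srsf6, Ampd3 and Alg11, each with Pearson's r of 0.984 over the 12 libraries, and with changes of 0.81, 1.33 and 1.07 in 2MUT and -0.04, 0.19 and 0.07 with 2-HG. For Hmox1 they were Plod2 (r = 0.985), Prkag2 (0.944) and Arhgap35 (0.942), with changes of 0.97, 0.89 and 0.43 in 2MUT and 0.28, 0.13 and -0.03 with 2-HG.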

How the data were processed

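The authors prepared Ion AmpliSeq libraries from total RNA, used TMAP for alignment to the AmpliSeq mouse transcriptome reference and the AmpliSeqRNA plug-in for gene counts, and deposited RPM, 1 table per experiment. AmpliSeq measures a short amplicon per gene, so levels are not compared between genes. Each library summed to 1000000 within rounding, and 100% of values were whole multiples of 1 read within 0.0006 RPM. Replicates differed by more than sampling noise (chi-square per degree of freedom 5.566 to 31.448).

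A gene was tested where its 6 libraries averaged 1 RPM or more. The test was limma (version 3.58.1, under R 4.3.3) with its trend option, applied to log2(RPM + 1), and p-values were Benjamini-Hochberg adjusted over all genes tested, with a threshold of 0.05. A fold change on this scale understates the change of low genes. The difference between the comparisons was a contrast over all 12 libraries. The members and gene lists were chosen with earlier results of these data known. Beside the 9 members, up to 4 genes of a list were named per comparison, those with the largest change among called genes at 10 RPM or more whose groups did not overlap, and for Nqo1 and Hmox1 the 3 genes most like them; other genes were named after their values were seen. Alternatives were an added value of 0.1, no filter, a filter at 10 RPM, limma without trend or without moderation, a replicate block, scaling by quantiles or by medians of ratios, edgeR 4.0.16 and DESeq2 1.42.0 on the recovered reads, and each library left out in turn. Counts of listed genes leave out those that reached 1 RPM on average in only 1 of the compared groups, a step chosen after seeing the data. On those reads edgeR called 1817 genes higher and 1947 lower in 2MUT and 1794 and 1752 with 2-HG, and DESeq2 called 1838 and 1910, and 1901 and 1765. The limma fit of each comparison was tested on simulated data that had the same added spread for every gene. The difference between the comparisons, edgeR and DESeq2 were not tested in this way.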

Additional observations from a re-analysis of the deposited data

Results flagged for a closer look

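For 6 of the 9 genes the change in 2MUT and the change with 2-HG differed from each other by the limma test of that difference. This stands beside 39.4% of all 9594 genes tested in both experiments, with 19.9% positive and 19.5% negative. The change in 2MUT minus the change with 2-HG was 1.41 on the log2 scale for Nfe2l2, 1.54 for Nqo1, 0.73 for Hmox1, 0.80 for Osgin1 and 1.66 for Gstm1, and -0.58 for Txnrd1. For Osgin1 neither change passed the test within its own experiment, although their difference did. For Gstm1 and Txnrd1 the change that passed its own test was the one with 2-HG, and for Nfe2l2, Nqo1 and Hmox1 it was the one in 2MUT.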

How the results depend on the processing

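Of 486 values recomputed for 27 results on single members, 468 kept their direction and their side of the threshold, 8 gained a call, 7 lost one and 3 changed sign. The changes of sign all concern the difference between the changes of Srxn1, which ranged from -0.21 to 0.35 with single libraries left out and never passed the test. With the unmoderated test of each gene alone, 1021 genes were higher and 1223 lower in 2MUT, and 1 member higher, Nqo1, while Nfe2l2 (adjusted p = 0.055), Hmox1 (0.052) and Srxn1 (0.15) lost their calls. With 2-HG this test gave 1098 genes higher and 1139 lower and 1 member higher, as Srxn1 (0.078) lost its call, and Hmox1 lost that of its difference (0.057). Without the mean-variance trend 2 members were lower with 2-HG, Osgin1 being added (adjusted p = 0.04999). The difference of Keap1 was called by edgeR (0.67, adjusted p = 0.048) and DESeq2 (0.67, adjusted p = 0.034). The cause of these shifts was not tested.

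With single libraries left out, the genes called numbered 1271 to 1926 higher and 1484 to 1880 lower in 2MUT, and 1146 to 1745 higher and 1176 to 1580 lower with 2-HG. Members called were 3 to 5 higher in 2MUT, 1 to 2 lower with 2-HG, and 5 to 6 positive and 1 to 2 negative for the difference. Library numbers did not pair the samples: deviations of libraries with the same number correlated at 0.071, 0.029 and 0.032 in the 2MUT experiment and at -0.457, -0.158 and 0.057 in the 2-HG experiment, where libraries with different numbers reached 0.48 and 0.413. With the replicate number as a block, 1911 genes were higher and 1987 lower in 2MUT, 1217 and 1286 with 2-HG, and 1694 and 1651 positive and negative for the difference, and no call of a member changed. Under the block, listed genes lost the calls of Ep300 (adjusted p = 0.056), Maff (0.052), Taldo1 (0.07) and Idh1 (0.092) with 2-HG and of Prdx4 (0.051) in 2MUT, and Mgst3 gained one in 2MUT (0.04998). With all tested genes counted, the list of other transferases had 8 of 11 lower with 2-HG, the detoxification and export list 3 of 12 lower with 2-HG, and the heme and iron list 2 of 7 higher in 2MUT. Scaling moved the median of all genes by less than 0.1 on the log2 scale. Depth is a limit for low genes such as Srxn1, with 25 to 113 reads per library in the 2MUT experiment.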
